A study of Mus musculus with 20 samples.

Results

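Podocytes are the epithelial cells that wrap the capillaries of the kidney's glomerulus, and their interlocking foot processes are bridged by a cell junction, the slit diaphragm, that holds back plasma protein. Nephrin reaches across this junction from both sides, scaffold proteins tie it to the actin bundles of the foot process, and the transcription factor WT1 keeps the cells in their specialised state. Loss or disturbance of these proteins is a known route to protein in the urine.

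The 8 genes described here were taken by name from podocyte biology, with earlier results of these data known. Their shares set beside all tested genes are therefore a description and no independent test. Nphs1, Cd2ap, Magi2 and Ptpro encode proteins of the slit diaphragm or its regulation. Podxl belongs to the apical membrane, Synpo to the actin cytoskeleton, Plce1 to signalling and Wt1 to transcription. Of the 25700 genes in the count tables these are 8. Each was found once by its mouse Ensembl identifier, and all 8 passed the filter on low counts that left 15430 genes for testing. Their raw counts ran from 154 to 14182 per library. Counting error, taken as Poisson, was 0.967% to 7.43% of the mean count in the 32 sets of 1 gene in 1 group, and in 7 of them it exceeded 50% of the coefficient of variation of CPM between libraries. It came closest for Plce1 in alkali-treated controls, at 6.68% against a coefficient of variation of 7.17%.

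RNA was sequenced from 20 mouse libraries, 5 in each of 4 groups. The groups were oxalate mice given alkali (libraries 2, 5, 8, 30 and 33), untreated oxalate mice (3, 12, 32, 39 and 40), control mice given alkali (1, 4, 7, 27 and 37) and untreated control mice (9, 13, 19, 26 and 35). The series describes crystal nephropathy, in which crystals damage the kidney, and bicarbonate as the alkali. The labels state no tissue, strain, genotype, sex, age, oxalate source or sampling time. The titles of both alkali groups also carry the word "late", so alkali and anything that word stands for cannot be told apart. Nothing in the labels says that libraries of a group came from separate animals, so the spread behind each p-value is that between libraries and may be technical.

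Kidney identity was checked by markers. Kap, a proximal tubule gene, averaged 18060 ± 6525, 19650 ± 6765, 32630 ± 3306 and 36270 ± 2795 CPM (counts scaled to a library of 1e6) in alkali-treated oxalate, untreated oxalate, alkali-treated control and untreated control libraries (SD, n = 5 each). Umod, of the thick ascending limb, averaged between 2533 and 2835 CPM in the 4 groups. Library totals ran from 25547840 to 39550689 counts.

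Promoter windows show the sequence around RefSeq starts of members that behaved unlike each other in the comparisons that follow. RefSeq promoters (GRCm38.p6, 250 bases before to 50 after the start) were on hand for 5 of the 8 genes, Nphs1, Cd2ap, Magi2, Ptpro and Plce1. Shown are Nphs1, as the gene the others are set against, Ptpro, which had the greatest fold difference of the 8 between untreated oxalate and untreated control libraries, and both starts of Magi2, which did not pass the test there. Capitals mark 2 motifs found on either strand, CANNTG (the E-box bound by basic helix-loop-helix factors) and TAATTA (a core bound by homeodomain factors such as LMX1B). The windows are chr7:30459808-30460107, chr6:137252049-137252348, chr5:19226796-19227095 and chr5:19907268-19907567, all on the plus strand. The Nphs1 window lies inside the GENCODE span of that gene, which begins at 30458315. The Plce1 window, from 38523947 to 38524246, likewise lies inside a span that begins at 38481109. For these 2 genes the sequence before the outermost annotated start was not read.
Nphs1: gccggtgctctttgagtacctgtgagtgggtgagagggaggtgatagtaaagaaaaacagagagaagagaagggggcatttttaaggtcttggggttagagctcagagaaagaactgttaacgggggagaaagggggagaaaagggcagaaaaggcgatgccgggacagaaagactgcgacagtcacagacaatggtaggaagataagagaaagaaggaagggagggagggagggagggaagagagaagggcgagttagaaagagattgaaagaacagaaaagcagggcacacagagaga
Ptpro: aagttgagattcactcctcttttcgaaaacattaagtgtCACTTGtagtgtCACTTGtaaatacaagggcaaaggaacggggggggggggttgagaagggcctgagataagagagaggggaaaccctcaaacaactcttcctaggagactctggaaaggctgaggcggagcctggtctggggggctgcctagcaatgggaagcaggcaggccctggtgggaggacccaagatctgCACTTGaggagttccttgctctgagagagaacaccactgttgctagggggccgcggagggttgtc
Magi2 upstream start: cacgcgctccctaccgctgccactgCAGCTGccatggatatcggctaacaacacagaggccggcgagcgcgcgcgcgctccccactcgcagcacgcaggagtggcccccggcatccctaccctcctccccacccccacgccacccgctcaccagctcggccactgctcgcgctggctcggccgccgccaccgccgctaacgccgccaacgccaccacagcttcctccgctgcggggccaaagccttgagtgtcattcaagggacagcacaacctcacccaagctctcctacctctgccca
Magi2 downstream start: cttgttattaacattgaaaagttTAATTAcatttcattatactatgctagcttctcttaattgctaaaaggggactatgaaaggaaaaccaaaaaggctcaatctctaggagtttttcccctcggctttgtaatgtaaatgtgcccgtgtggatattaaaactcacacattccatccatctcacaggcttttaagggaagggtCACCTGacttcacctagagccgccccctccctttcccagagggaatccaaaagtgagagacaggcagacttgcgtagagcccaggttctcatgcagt

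No window of the 5 genes held GCGTGGGAG or GCGGGGGCG, letters bound by WT1 and by WT1 and EGR1. Among all 32851 RefSeq promoters of this length these letters occurred in 0.472% and 2.91%. The E-box letters occurred in 72.3% of all promoters, and the Nphs1 window had none while that of Ptpro had 3 and that of Cd2ap had 2. The downstream Magi2 start alone among the windows held TAATTA, which 5.29% of all promoters hold. The windows also differed in base composition. The GC content was 77.0% for Cd2ap and 69.3% for the upstream Magi2 start, against 54.7% for Ptpro, 49.7% for Nphs1, 43.0% for the downstream Magi2 start and 41.0% for Plce1, with a median of 52.7% over all promoters. These matches are a description of the letters and were not tested as binding sites.

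Setting untreated oxalate against untreated control libraries asks how the crystal disease bears on podocyte transcripts. Transcripts of 7 of the 8 genes rose in oxalate libraries, by 1.197-fold (Cd2ap) to 1.96-fold (Ptpro), and Magi2 did not pass the test (edgeR's quasi-likelihood test, Benjamini-Hochberg adjusted p under 0.05 over all tested genes). The median log2 fold change of the 8 was 0.59, against 0.00 over all tested genes. Of all tested genes 26.4% rose in this comparison. In 6 of the 8 genes all 5 oxalate libraries lay above all 5 control libraries, which held for 18.5% of tested genes. In tissue of mixed cells, more or fewer podocytes and more or less RNA per podocyte cannot be told apart.

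Nphs1 (chromosome 7, 30458315 to 30487223, GRCm38) encodes nephrin, the adhesion protein that spans the slit diaphragm. It measured 30.1, 41.01, 50.8, 44.2 and 35.7 CPM in alkali-treated oxalate libraries and 37.5, 36.4, 33.05, 34.8 and 35.8 CPM in untreated oxalate libraries. In controls it measured 25.6, 27.8, 27.2, 25.5 and 24.01 CPM with alkali and 26.04, 29.8, 29.5, 22.1 and 24.8 CPM without. Neither oxalate group overlapped the control group of the same treatment, although library 2 of the alkali-treated oxalate group, at 30.1 CPM, lay close to the highest untreated control, at 29.8 CPM. Nphs1 rose by a log2 fold change of 0.42 ± 0.11 (SE, adjusted p = 0.0034) in untreated oxalate against untreated control libraries and by 0.63 ± 0.11 (adjusted p = 0.000389) where both had alkali. Exons of Nphs1 share 9.02% of their bases with an antisense gene, Nphs1os, and the strand setting of the counting is not given in the sources used here, so reads of that transcript could be counted with it.

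Cd2ap (chromosome 17, 42792951 to 42876665) encodes an adaptor that links nephrin to actin and is also known from T cells. Its values were 139, 141, 127, 127 and 147 CPM in alkali-treated oxalate libraries and 139, 136, 127, 139 and 161 CPM in untreated oxalate libraries, against 116, 115, 118, 125 and 118 CPM in alkali-treated controls and 105, 133, 114, 108 and 125 CPM in untreated controls. The untreated groups overlapped, since control library 13 lay above oxalate library 32, while the groups with alkali stood apart by a small gap. Cd2ap rose by 0.26 ± 0.08 log2 units (adjusted p = 0.00935) without alkali, and this call ended when untreated oxalate library 40, its highest library, was left out (0.16, adjusted p = 0.0926). With alkali it rose by 0.20 ± 0.08 (adjusted p = 0.0442), a call that was lost under relative-log-expression scaling (adjusted p = 0.0573), without the low-count filter (adjusted p = 0.137) and without any 1 of 14 libraries (adjusted p from 0.051 to 0.11).

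Magi2 (chromosome 5, 19227036 to 20704792) encodes a scaffold with guanylate kinase and PDZ domains that holds nephrin at the slit diaphragm. It measured 12.4, 11.6, 14.4, 12.98 and 11.3 CPM in alkali-treated oxalate libraries and 11.7, 8.43, 10.8, 11.3 and 9.72 CPM in untreated oxalate libraries. Alkali-treated controls had 11.3, 11.4, 12.9, 10.97 and 10.99 CPM and untreated controls 10.1, 12.2, 10.4, 8.52 and 10.6 CPM. All 4 groups overlapped. The log2 fold change between untreated oxalate and untreated control libraries was 0.01 (95% interval -0.22 to 0.23, adjusted p = 0.97), and where both had alkali it was 0.12 (-0.10 to 0.35, adjusted p = 0.361). The upper bounds lie below the log2 fold changes measured for Nphs1, Podxl, Ptpro, Synpo, Plce1 and Wt1 in the same comparison. Cd2ap, at 0.20 where both had alkali, lay within the Magi2 interval there.

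Ptpro (chromosome 6, 137252319 to 137463233) encodes a receptor tyrosine phosphatase of the podocyte's apical surface, known also as GLEPP1 and expressed in macrophages and B cells too. It had 20.05, 28.8, 29.9, 26.9 and 27.7 CPM in alkali-treated oxalate libraries and 27.96, 29.7, 27.9, 31.1 and 41.6 CPM in untreated oxalate libraries, against 16.4, 16.97, 15.3, 17.1 and 14.9 CPM in alkali-treated controls and 15.3, 20.7, 14.9, 14.99 and 14.8 CPM in untreated controls. Both oxalate groups lay above their controls in every library. Without alkali the fold was 1.96 (95% interval of the log2 value 0.71 to 1.23), and with alkali the log2 fold change was 0.73 ± 0.12 (adjusted p = 0.000359). Library 40, the highest for Ptpro, was also the highest for Cd68 and Ptprc, markers of macrophages and of all leukocytes, at 166 and 121 CPM. Without library 40 the log2 fold change of Ptpro was 0.81, the lowest when any 1 library was left out, and the call held. The part of leukocytes in the Ptpro difference was not tested.

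Podxl (chromosome 6, 31519488 to 31563981) encodes podocalyxin, the negatively charged sialoprotein of the podocyte's apical membrane that endothelium carries as well. It was the most abundant of the 8. Its values were 231, 349, 354, 271 and 313 CPM in alkali-treated oxalate libraries and 285, 277, 236, 279 and 324 CPM in untreated oxalate libraries, against 219.7, 211, 194, 205 and 190.3 CPM in alkali-treated controls and 219, 228, 198, 188 and 198 CPM in untreated controls. Oxalate libraries stood above controls of the same treatment without overlap, the closest being library 2 with alkali and library 32 without. Podxl rose by 0.44 ± 0.11 log2 units without alkali (adjusted p = 0.00256) and by 0.57 ± 0.11 with it (adjusted p = 0.00083). Of 12 glomerular endothelial genes 3 rose without alkali and 10 with it, where 26.4% and 23.4% of all tested genes rose. The 3 were Plat, by 0.87 ± 0.13, Ehd4, by 0.72 ± 0.18, and Pecam1, by 0.33 ± 0.105 log2 units (adjusted p = 3.2e-05, 0.00309 and 0.0131). With alkali, Pecam1 rose by 0.51 ± 0.105 (adjusted p = 0.00134). Ehd3, a gene of glomerular endothelium, had -0.02 ± 0.11 (adjusted p = 0.879) without alkali and 0.21 ± 0.11 (adjusted p = 0.115) with it. The part of endothelium in the Podxl difference was not tested.

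Synpo encodes synaptopodin, an actin-bundling partner of the foot process cytoskeleton. It measured 59.2, 93.7, 97.7, 82.7 and 84.5 CPM in alkali-treated oxalate libraries and 81.3, 81.7, 73.7, 79.9 and 99.9 CPM in untreated oxalate libraries. The control values were 51.5, 53.5, 51.1, 46.6 and 41.8 CPM with alkali and 50.6, 51.1, 59.4, 47.1 and 42.8 CPM without. No oxalate library reached down to a control of its own treatment, and library 2, at 59.2 CPM, came nearest, below untreated control library 19 at 59.4 CPM. The fold was 1.66 without alkali (95% interval of the log2 value 0.48 to 0.98), and with alkali the log2 fold change was 0.77 ± 0.12 (adjusted p = 0.000157).

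Plce1 (chromosome 19, 38481109 to 38785030) encodes phospholipase C epsilon, an enzyme of podocyte signalling whose loss causes an inherited nephrotic syndrome in people. It had 11.2, 14.1, 10.6, 11.1 and 15.8 CPM in alkali-treated oxalate libraries, 12.7, 11.4, 8.41, 13.5 and 16.9 CPM in untreated oxalate libraries, 8.32, 7.11, 7.37, 8.26 and 8.17 CPM in alkali-treated controls and 6.03, 7.58, 7.34, 7.05 and 6.25 CPM in untreated controls. The 5 untreated oxalate libraries were the most scattered, from 8.41 CPM in library 32 to 16.9 CPM in library 40, yet all lay above the untreated controls. Plce1 rose by 0.88 ± 0.15 log2 units without alkali (adjusted p = 0.000118) and by 0.68 ± 0.15 with it (adjusted p = 0.00247).

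Wt1 (chromosome 2, 105126529 to 105173616) encodes the zinc finger factor that podocytes keep into adult life and that parietal epithelium and mesothelium also make. It had 7.51, 16.8, 20.9, 17.98 and 16.1 CPM in alkali-treated oxalate libraries and 17.04, 16.3, 13.4, 12.5 and 19.1 CPM in untreated oxalate libraries, against 7.55, 7.51, 10.05, 7.53 and 7.73 CPM in alkali-treated controls and 11.002, 8.97, 9.37, 7.53 and 7.75 CPM in untreated controls. The untreated groups did not overlap. With alkali, 4 oxalate libraries lay between 16.1 and 20.9 CPM, and library 2 lay at 7.51 CPM, on a level with the lowest control. Wt1 rose by 0.81 ± 0.19 log2 units without alkali (adjusted p = 0.002) and by 0.97 ± 0.20 with it (adjusted p = 0.00119), and without library 2 it was up by 1.15 with alkali. Of the 3 mesothelial genes tested, Krt7, which collecting ducts also make, rose by 0.72 ± 0.12 log2 units without alkali (adjusted p = 0.000126), while Upk3b had 0.34 ± 0.55 (adjusted p = 0.629) and Msln 0.71 ± 0.75 (adjusted p = 0.454). The fourth of the list, Lrrn4, was at 0 counts in 13 of the 20 libraries. The list's summed CPM, led by Krt7, was 124 to 149.5 in untreated oxalate and 67.7 to 97.8 in untreated control libraries. Of 11 parietal epithelial genes 9 rose without alkali and 9 with it, where 26.4% and 23.4% of all tested genes rose. Their median log2 fold change was 1.34 without alkali and 1.12 with it. The part of parietal epithelium and of mesothelium in the Wt1 difference was not tested.

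**Figure D1:**
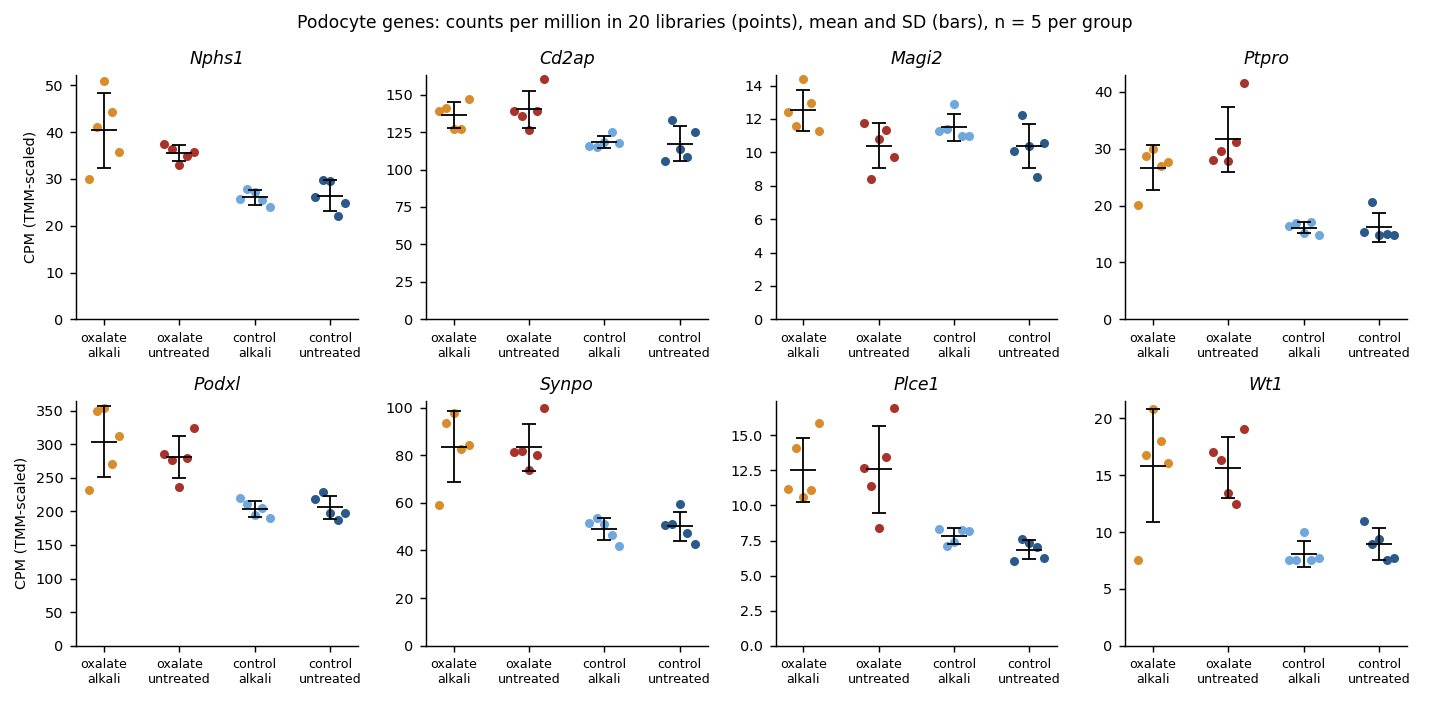
CPM (TMM-scaled, vertical axes from 0) of the 8 podocyte genes in each library (points), with the mean and SD of 5 libraries per group (bars). For Ptpro the oxalate libraries sit at 20.05 CPM or more with alkali and 27.9 CPM or more without, above controls at up to 17.1 CPM with alkali and 20.7 CPM without, while the 4 groups of Magi2 overlap.

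Where both groups had alkali, the oxalate libraries again showed 7 of the 8 genes higher than controls, with 23.4% of all tested genes higher. In 6 of the 8, all 5 oxalate libraries lay above all 5 controls (10.8% of tested genes). The exceptions to separation were Magi2 and Wt1. The median log2 fold change of the 8 was 0.66, against 0.02 over all tested genes. Beside the oxalate libraries stands library 2, which had the lowest CPM of the 10 oxalate libraries for Nphs1, Podxl, Synpo, Wt1 and Ptpro. It also had the lowest Cd68 (6.68 CPM), Ptprc (18.4 CPM) and Havcr1 (11.1 CPM, a marker of tubular injury) of the 10. Without it the number of genes called with alkali was 6 of 8, Cd2ap being lost, and the log2 fold change of Nphs1 was 0.72.

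Alkali in oxalate mice asks whether the treatment moved podocyte transcripts in diseased kidneys. None of the 8 genes was called by edgeR, nor by DESeq2, while 4.08% of all tested genes were called in either direction (1 of the 8 had an unadjusted p under 0.05). That gene was Magi2, at 12.5 ± 1.2 CPM with alkali and 10.4 ± 1.3 CPM without (SD, n = 5 each), a log2 fold change of 0.27 (95% interval 0.05 to 0.49, adjusted p = 0.152). Ptpro averaged 26.7 ± 3.9 CPM with alkali and 31.7 ± 5.7 CPM without, with a log2 fold change of -0.25 (-0.50 to 0.01, adjusted p = 0.264). Nphs1 averaged 40.4 ± 8.0 CPM with alkali and 35.5 ± 1.7 CPM without, a difference of 0.19 (-0.04 to 0.41, adjusted p = 0.349). For the other 5 the log2 fold change was between -0.04 and 0.12. The 95% intervals were narrowest for Cd2ap (-0.20 to 0.12) and widest for Wt1 (-0.38 to 0.42).

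Alkali in control mice left no gene called among the 8 by edgeR (0 at an unadjusted p under 0.05) or DESeq2, and 0.0% of all tested genes were called (edgeR called 0 genes, with 389 at an unadjusted p under 0.05, and DESeq2 called 3). The widest differences among the 8 were Plce1, at 7.84 ± 0.56 CPM with alkali and 6.85 ± 0.68 CPM without, and Magi2, at 11.5 ± 0.8 CPM with alkali and 10.4 ± 1.3 CPM without (SD, n = 5 each). Their log2 fold changes were 0.20 (95% interval -0.12 to 0.51) and 0.15 (-0.07 to 0.38). The interaction, which tests whether alkali acted differently in oxalate and control mice, was called for none of the 8 (0 at an unadjusted p under 0.05) and 0.0% of tested genes (edgeR called 0, with 1429 at an unadjusted p under 0.05, and DESeq2 called 26, none of them among the 8, with no adjusted p given for Plce1). Among the 8 it ran from -0.25 (Ptpro, 95% interval -0.61 to 0.12) to 0.21 (Nphs1, -0.11 to 0.53). Transcripts of the 8 genes showed no called change with alkali in either kind of mouse, within these intervals.

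**Figure D2:**
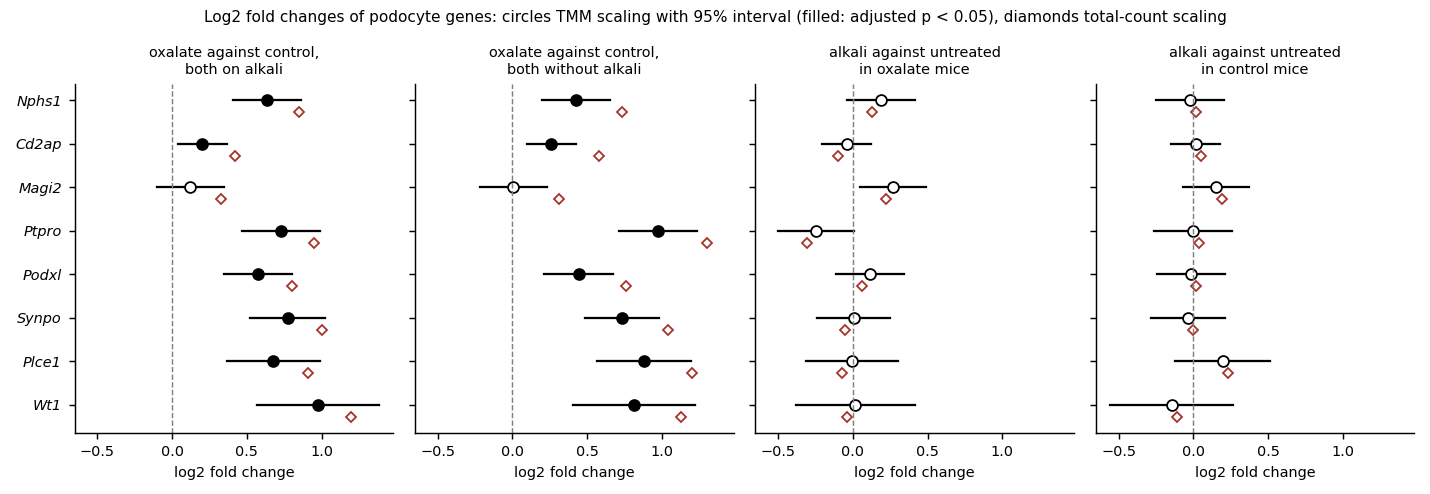
Log2 fold changes (horizontal axes) of the 8 genes in the 4 comparisons of 2 groups, as circles with 95% intervals under TMM scaling (filled where adjusted p is under 0.05) and as diamonds under total-count scaling. Circles lie right of 0 for 7 filled genes in both oxalate comparisons, and no circle is filled in the alkali comparisons.

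Scaling by the total count instead of TMM shifted all values of untreated oxalate against untreated control libraries. The median log2 fold change of all tested genes became 0.30 in place of 0.00, and 7498 genes were called higher and 1308 lower, in place of 4067 and 3563. TMM factors, which divide out such shifts, were 0.96 to 1.196 in alkali-treated oxalate, 1.01 to 1.28 in untreated oxalate, 0.92 to 0.97 in alkali-treated control and 0.87 to 0.96 in untreated control libraries. All 8 genes were called under total-count scaling, with a median of 0.90. Magi2 then had 0.31 (adjusted p = 0.0156), about the shift of all genes, and Cd2ap had 0.58. With alkali the shift of all genes was 0.24, Magi2 had 0.33 (adjusted p = 0.0147) and all 8 genes were again called. The choice between these scalings decided the call of Magi2 and of no other of the 8.

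Ratios between genes of 1 library do not depend on the scaling between libraries, so each gene was set against Nphs1. Relative to Nphs1, Ptpro and Synpo were higher and Magi2 was lower in untreated oxalate against untreated control libraries, and Podxl kept close to Nphs1. The log2 ratio of Ptpro to Nphs1 was -0.18 ± 0.24 in untreated oxalate and -0.71 ± 0.18 in untreated control libraries (SD, n = 5 each), a difference of 0.53 (exact two-sided permutation test, p = 0.00794, the smallest that 5 against 5 can give). For Synpo it was 1.22 ± 0.15 in untreated oxalate and 0.92 ± 0.14 in untreated control libraries, a difference of 0.30 (exact permutation p = 0.00794). For Magi2 it was -1.77 ± 0.21 in untreated oxalate and -1.35 ± 0.11 in untreated control libraries, a difference of -0.43 (exact permutation p = 0.00794). The oxalate and control libraries did not overlap in any of these 3 ratios. Podxl had 2.97 ± 0.13 in untreated oxalate and 2.96 ± 0.14 in untreated control libraries (difference 0.01, exact permutation p = 0.897).

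Across the 4 comparisons 28 ratios were tested, and 9 had an exact permutation p under 0.05, but none stayed under 0.05 after Benjamini-Hochberg adjustment over the 28 (smallest 0.0741). No exact permutation p here can lie below 0.00794. A ratio at that floor passes the adjustment only if enough others are as low, whatever the size of its own difference. The adjusted values therefore cannot decide on single ratios. With alkali, the Magi2 ratio was -1.67 ± 0.23 in oxalate and -1.17 ± 0.08 in control libraries (difference -0.49, exact permutation p = 0.0159), and library 2, at -1.27, was the oxalate library nearest to controls. In oxalate mice the Ptpro ratio was -0.59 ± 0.16 with alkali and -0.18 ± 0.24 without (difference -0.41, exact permutation p = 0.0159). The alkali-treated libraries ran from -0.76 to -0.36 and the untreated ones from -0.42 to 0.22, library 40 being the highest. Alkali-treated oxalate and alkali-treated control libraries differed in the Ptpro ratio by 0.10 (exact permutation p = 0.286). In control mice the Magi2 ratio was -1.17 ± 0.08 with alkali and -1.35 ± 0.11 without (difference 0.17, exact permutation p = 0.0238). Wt1, Plce1 and Cd2ap each had 1 ratio under 0.05, and each of these lost that level when some single libraries were left out, with p up to 0.0556, 0.0873 and 0.0952.

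**Figure D3:**
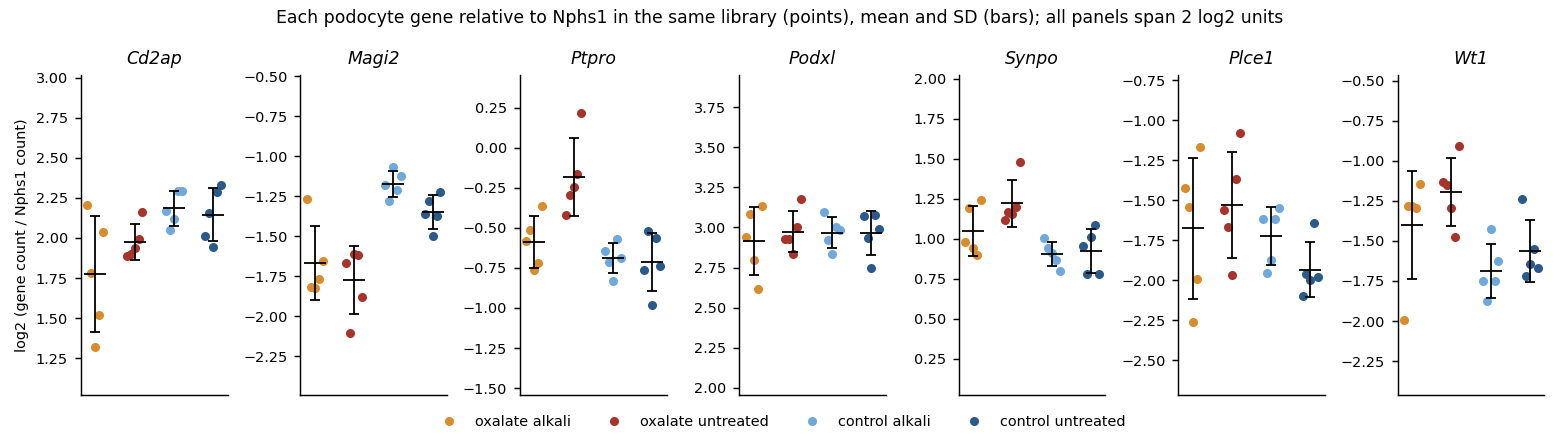
Log2 ratio of the raw count of each gene to that of Nphs1 (vertical axes, each spanning 2 log2 units) in single libraries (points), with the mean and SD of 5 libraries (bars) for the 4 groups. Ptpro stands out high in untreated oxalate libraries, at -0.42 to 0.22, and the mean of Magi2 lies lower in both oxalate groups than in their controls.

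Per kilobase of exon, Podxl led the 8 by far, at 51.1 ± 5.7 CPM per kb in untreated oxalate and 37.6 ± 3.1 CPM per kb in untreated control libraries (SD, n = 5 each). In untreated oxalate libraries Cd2ap (8.84 ± 0.79 CPM per kb) and Synpo (8.74 ± 1.03) came next and did not differ beyond their spread. Nphs1 (5.36 ± 0.25) and Ptpro (4.71 ± 0.85) followed, also within their spread, then Wt1 (2.53 ± 0.44), and Magi2 (0.917 ± 0.118) and Plce1 (0.786 ± 0.194) were the lowest. In untreated controls the order of these levels was the same, with Cd2ap at 7.38 ± 0.74, Synpo at 5.27 ± 0.64, Nphs1 at 3.99 ± 0.49, Ptpro at 2.40 ± 0.38, Wt1 at 1.44 ± 0.23, Magi2 at 0.913 ± 0.117 and Plce1 at 0.428 ± 0.043 CPM per kb. There the gaps between Cd2ap and Synpo, Nphs1 and Ptpro, and Magi2 and Plce1 exceeded the SDs. The lengths are those of all annotated exons joined, which overstate the length of any single transcript.

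Some of the members also varied together with Nphs1 inside groups. Deviations of log2 CPM from the group mean were taken over all 20 libraries and every tested gene was ranked by its Pearson correlation with Nphs1. Of 15429 genes the one most like Nphs1 was Lmx1b, the homeodomain factor of podocytes (r = 0.87, Spearman's rho = 0.79). Among the 8, Wt1 ranked 17 (r = 0.77), Synpo 23 (r = 0.76), Podxl 174 (r = 0.63), Ptpro 439 (r = 0.56) and Magi2 882 (r = 0.49). Plce1, at rank 8143 (r = -0.03), and Cd2ap, at rank 8759 (r = -0.07), did not follow Nphs1. These correlations are a description over 20 libraries, which share library preparation and scaling, and the genes were picked for their r, so no p is given.

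Libraries 2 and 8 of the alkali-treated oxalate group, at -0.40 and 0.36 log2 units, were the farthest from the median of the Nphs1 deviations. Without these 2 libraries r was 0.72 for Lmx1b, 0.48 for Wt1, 0.55 for Synpo, 0.29 for Podxl, 0.31 for Ptpro and 0.53 for Magi2, so much of the relation for Wt1, Podxl and Ptpro rested on them. The other 9 of the 10 best-ranked genes under the naming rule were Tle1, H2-DMb1, Rin3, Grb10, Smarce1, Snrpf, Hnrnpc, Cfi and Lima1, with r from 0.78 to 0.83. Library 2 fell short of its group mean for Nphs1, Podxl, Synpo, Ptpro and Wt1, and lay near it for Magi2 (-0.01) and Cd2ap (0.03). In library 40 of the untreated oxalate group the pattern differed. There Ptpro, Plce1, Synpo, Wt1, Podxl and Cd2ap lay above the group mean, Nphs1 close to it and Magi2 below it.

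**Figure D4:**
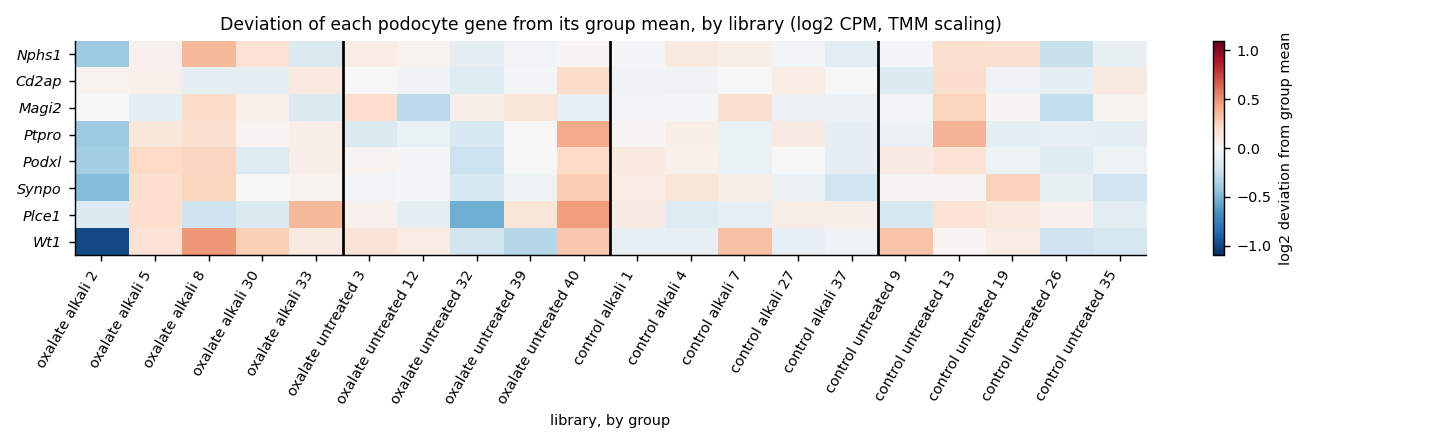
Deviation of log2 CPM from the group mean (colour, red above and blue below) for the 8 genes (rows) in 20 libraries (columns, by group). Library 2 of the alkali-treated oxalate group is the darkest blue column, reaching -0.99 for Wt1.

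Other genes of podocytes were read from 5 lists, also chosen with earlier results of these data known. Of 63 genes in the files, 62 were tested, and in untreated oxalate against untreated control libraries 37 rose (59.7%, against 26.4% of all tested genes) and 9 fell (23.1% of all tested genes fell). Among slit diaphragm genes 7 of 11 rose and 1 fell. Kirrel, which encodes the nephrin partner NEPH1, averaged 39.02 ± 14.7 CPM in untreated oxalate and 12.4 ± 1.7 CPM in untreated control libraries (SD, n = 5 each), and its log2 fold change was 1.65 ± 0.24 (adjusted p = 1.76e-05). The kinase gene Fyn, which phosphorylates nephrin, rose by 0.97 ± 0.16, and the adaptor gene Nck1 by 0.39 ± 0.08. Kirrel3 averaged 2.77 CPM in untreated oxalate and 0.277 CPM in untreated control libraries, a low level, and rose by 3.28 ± 0.51. The polarity gene Pard3 fell by 0.48 log2 units (adjusted p = 0.000478).

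Among cytoskeletal and apical genes 11 of 17 rose and 2 fell. Pdpn, which encodes podoplanin of podocytes, parietal cells and activated fibroblasts, averaged 24.9 ± 9.9 CPM in untreated oxalate and 4.55 ± 0.46 CPM in untreated control libraries (log2 fold change 2.46 ± 0.25, adjusted p = 6.67e-07). Nes, for the intermediate filament nestin, rose by 1.32 ± 0.18, Inf2, a formin gene, by 1.46 ± 0.26, and Anln, an actin-binding gene of dividing cells, by 1.76 ± 0.35. Arhgap24, which encodes a Rac-inactivating protein, fell by 0.45 log2 units (adjusted p = 0.00424). It averaged 226 ± 20 CPM in untreated controls, and which cells made it was not tested. Of 9 transcription and cell cycle genes 7 rose, and the other 2, Foxd2 and Dach1, had log2 fold changes of 0.43 and 0.22 without passing the test. Cdkn1c, for the cell cycle inhibitor p57, rose by 1.32 ± 0.23, Foxc2 by 1.21 ± 0.24 and Tcf21 by 1.02 ± 0.22. Lmx1b rose by 0.61 ± 0.17 (adjusted p = 0.00483).

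Matrix and adhesion genes went both ways, with 7 of 13 higher and 2 lower. The 2 that fell were Col4a3 and Col4a4, chains of the mature glomerular basement membrane. Col4a3 averaged 218 ± 7 CPM in untreated oxalate and 385 ± 17 CPM in untreated control libraries (SD, n = 5 each), a log2 fold change of -0.82 ± 0.13 (adjusted p = 4.99e-05). Col4a4 averaged 240.4 ± 16.01 CPM in untreated oxalate and 376 ± 18 CPM in untreated control libraries, with -0.64 ± 0.11 (adjusted p = 7.3e-05). Both were still lower with alkali, by -0.47 ± 0.13 (adjusted p = 0.00915) and -0.33 ± 0.11 (adjusted p = 0.0195). Nphs1 averaged 26.45 ± 3.22 CPM in untreated controls, far below Col4a3 and Col4a4 there. Which cells of the tissue made the Col4a3 and Col4a4 transcripts was not tested. Nid1, for nidogen, rose by 1.19 ± 0.20 and Itga3, for the integrin chain that anchors podocytes to laminin, by 0.80 ± 0.14. Of 12 other podocyte-enriched genes 5 rose and 4 fell. Bcam, a laminin receptor gene, rose by 1.04 ± 0.18, and Robo2 and Pla2r1 by 0.65 each, while Vegfa, the capillary growth factor gene that tubules also express, had -0.49 ± 0.13 (adjusted p = 0.00304) and Ildr2 had -0.65 ± 0.13 (adjusted p = 0.000659).

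With alkali in both groups 31 of the 62 genes rose and 4 fell, where 23.4% of all tested genes rose and 17.1% fell. Under total-count scaling 48 of the 62 were higher and 4 lower without alkali, where 48.6% of all tested genes were higher. With alkali 46 were higher and 1 was lower, where 36.6% of all tested genes were higher. Between alkali-treated and untreated oxalate libraries 1 gene of the 62 rose and 2 fell, in all 4.84%, close to the 4.08% of all tested genes called there, so the count does not set these genes apart. Arhgap24 averaged 236 ± 40 CPM in alkali-treated oxalate and 166 ± 26 CPM in untreated oxalate libraries (log2 fold change 0.51 ± 0.12, adjusted p = 0.0236). Nck1 averaged 22.4 ± 0.4 CPM with alkali and 27.8 ± 2.9 CPM without (-0.31 ± 0.08, adjusted p = 0.0267), and Pdpn 14.1 ± 5.4 CPM with alkali and 24.9 ± 9.9 CPM without (-0.82 ± 0.23, adjusted p = 0.0496). None of these 3 was called when the 2 oxalate groups were fitted alone. Col4a4 had 0.34 ± 0.11 (adjusted p = 0.0669).

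Markers of other cells moved too between untreated oxalate and untreated control libraries, a comparison in which 26.4% of all tested genes rose and 23.1% fell. Of 16 macrophage and lymphocyte genes 13 rose, with the list's summed CPM at 657.5 to 2669 in untreated oxalate and 124 to 156 in untreated control libraries. All 10 fibroblast genes rose (summed 626 to 2319 CPM in untreated oxalate, 203 to 285 CPM in untreated controls), as did 9 of 11 parietal epithelial genes (476 to 763 CPM, against 305 to 350 CPM in untreated controls) and 5 of 7 mesangial genes (204 to 366 CPM, against 153 to 178 CPM). The mesangial list also held 1 gene that fell. Distal nephron genes moved little, with 2 of 10 higher, 0 lower and a median log2 fold change of 0.002. All 12 proximal tubule genes fell, and their sum was 16950 to 43880 CPM in untreated oxalate and 53050 to 61320 CPM in untreated control libraries. The sum for the 8 podocyte genes was 530.4 to 708 CPM in untreated oxalate and 403 to 492 CPM in untreated control libraries. The share of glomerular endothelial genes that rose, 3 of 12, was near that of all tested genes. With alkali in both groups 10 of the 12 rose, where 23.4% of all tested genes rose. Under total-count scaling 9 were higher without alkali and 12 with it, where 48.6% and 36.6% of all tested genes were higher. The part of these shifts in the podocyte genes' differences was not tested.

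**Figure D5:**
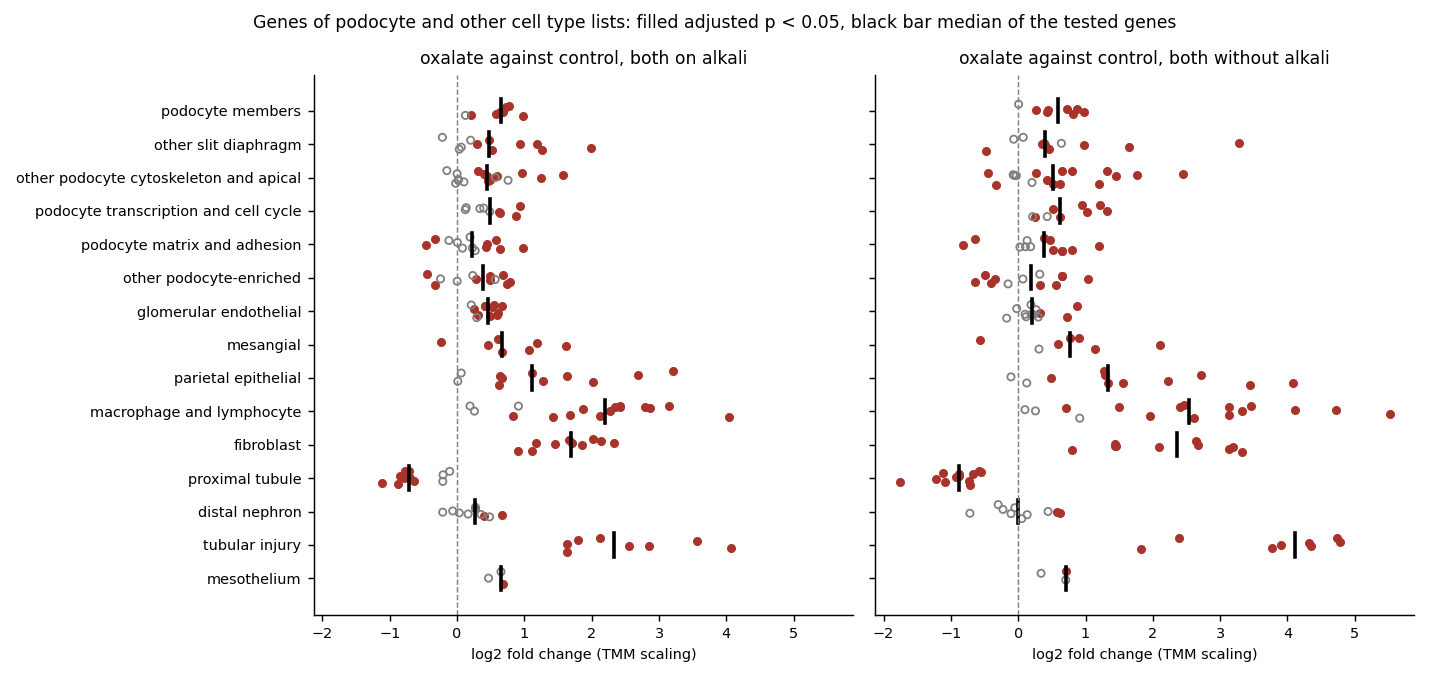
Log2 fold changes (horizontal axes, TMM scaling) of single genes (points, filled where adjusted p is under 0.05) in podocyte and other cell type lists, with the median of each list (black bar), for oxalate against control with and without alkali. The median of the 8 podocyte genes was 0.66 with alkali and 0.59 without, between that of proximal tubule genes (-0.71 with alkali and -0.88 without) and that of macrophage and lymphocyte genes (2.20 with alkali and 2.54 without).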

How the data were processed

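The authors deposited raw counts per gene, 1 file per library, made with bcl2fastq 2.19, Trimmomatic, STAR 2.7.1, featureCounts and edgeR, per the submitters' processing notes, from stranded poly(A) TruSeq libraries, per the labels. The notes name a human build, GRCh38.p5, but every identifier is a mouse gene; which build was used is unresolved, and counting by strand is not given in the sources used here. Opposite-strand genes share 30.7% of the exon bases of Cdkn1c, 19.5% of Umod, 11.7% of Slc34a1 and 11.0% of Ildr2, whose counts are uncertain for the same reason. For symbols and coordinates, 25664 identifiers were found in GENCODE M21 (GRCm38) and 36 were not.

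Genes were kept by filterByExpr (minimum count 10; 15430 kept, 10270 removed), scaled by TMM and fitted to the 4 group means of all 20 libraries by edgeR 4.0.16's robust quasi-likelihood method (R 4.3.3, limma 3.58.1). Calls used a Benjamini-Hochberg adjusted p under 0.05 over all tested genes. SE is the log2 fold change over the square root of F, and 95% intervals use the test's degrees of freedom. CPM are TMM-scaled. Ratios to Nphs1 used raw counts plus a prior count of 2. The code was tested on simulated counts. Replicate libraries differed beyond counting error (chi-square per degree of freedom 9.04 to 230.0 over 40 pairs), and none was merged. No paired analysis was possible because the groups share no replicate numbers.

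The members and the gene lists were chosen with earlier results of these data known. Named beside the 8 members were, by rule, up to 4 genes per list with the smallest p without alkali and up to 2 with the smallest p for alkali in oxalate mice, a fixed set of markers, and the 10 genes (average log2 CPM of at least 1, symbols of predicted or clone-named genes left out) most like Nphs1. Kap, Lrrn4, Msln, Krt7, Plat, Ehd4, Foxd2 and Dach1 were also named after their values were seen. A few genes picked by these criteria are not reported here. Alternatives were total-count scaling, relative-log-expression scaling, DESeq2 1.42.0, no filter, fits of 2 groups alone, leaving out each library, and a prior count of 0.5 for ratios.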

Additional observations from a re-analysis of the deposited data

Results flagged for a closer look

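In 32 sets of 5 libraries, 1 for each of the 8 genes in each of the 4 groups, a library counted as standing apart where its gap to the nearest other library exceeded 0.71 of the set's range. Chance alone marks about 1 in 20 such sets, and 4 were marked. Ptpro was marked at 41.6 CPM in untreated oxalate library 40 and at 20.7 CPM in untreated control library 13. Alkali-treated control library 7 was marked for Wt1, at 10.05 CPM, and for Magi2, at 12.9 CPM. Library 2 of the alkali-treated oxalate group, lowest for 5 of the genes, was not marked for any of them. The interaction of alkali with oxalate was called for none of the 8 genes.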

How the results depend on the processing

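The number of the 8 genes called was 6 to 8 under every alternative for oxalate against control without alkali and with alkali, and 0 under every alternative for alkali in oxalate mice, alkali in control mice and the interaction. Of 350 alternative values of the 14 called differences none changed sign and 17 lost the call, all of them Cd2ap. Leaving out single libraries gave log2 fold changes of 0.37 to 0.47 for Nphs1, 0.34 to 0.48 for Podxl, 0.61 to 0.80 for Synpo, 0.81 to 1.08 for Ptpro, 0.70 to 0.95 for Plce1 and 0.69 to 0.90 for Wt1 in untreated oxalate against untreated control libraries. The ratios to Nphs1 under p 0.05 numbered 7 to 10 when 1 library was left out and 9 with a prior count of 0.5. The number of all genes called for alkali in oxalate mice was 630, but 29 with the 2 groups fitted alone, 1203 by DESeq2 and 185 to 1160 without 1 library.

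Only differences not called under TMM scaling changed sign. Leaving out single libraries moved the log2 fold change over -0.06 to 0.07 for Magi2 in untreated oxalate against untreated control libraries. For alkali in oxalate mice it moved over -0.10 to 0.19 for Wt1 and -0.07 to 0.02 for Cd2ap, and for alkali in control mice over -0.08 to 0.02 for Nphs1, -0.05 to 0.02 for Podxl, -0.09 to 0.03 for Synpo and -0.02 to 0.07 for Cd2ap. Differences at 0.00 under TMM scaling moved to either side of it, over -0.11 to 0.14 for Plce1 and -0.06 to 0.11 for Synpo with alkali in oxalate mice and over -0.03 to 0.10 for Ptpro with alkali in control mice. The interaction moved over -0.03 to 0.14 for Synpo and -0.11 to 0.01 for Cd2ap. Without the low-count filter Magi2 had -0.04 in untreated oxalate against untreated control libraries. Under total-count scaling Wt1 had -0.04 for alkali in oxalate mice, Nphs1 and Podxl had 0.02 for alkali in control mice, and Synpo had -0.05 for the interaction. The cause was not tested. Counting error exceeded 50% of the coefficient of variation between libraries in 7 of 32 sets of 1 gene in 1 group. Among them were Plce1 in both control groups and Magi2, Ptpro, Nphs1 and Cd2ap in alkali-treated controls. In alkali-treated controls this share was 93.1% for Plce1 and 51.6% for Cd2ap. Whether depth limited the precision was not tested.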
